A study of Mus musculus with 3 samples.

Results

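C-type lectin pattern receptors are surface proteins by which macrophages, dendritic cells and granulocytes bind sugars and other ligands of microbes and dying cells. The set comprised 10 listed genes that were looked up by symbol among the mouse genes of every library. Of these, 9 of the 31053 genes counted were measured in all 3 libraries, namely Mrc1, Ly75, Cd209a, Clec9a, Clec4n, Clec4d, Clec4e, Clec4a2 and Clec12a. Clec7a, which encodes the beta-glucan receptor dectin-1, was not analysed here. The family works through several routes. Mrc1, Ly75, Cd209a and Clec9a take up ligands for degradation or antigen presentation, whereas the products of Clec4n, Clec4d and Clec4e pair with the adaptor encoded by Fcer1g and signal through the kinase Syk and the scaffold Card9 towards cytokine genes. Clec4a2 and Clec12a carry inhibitory motifs that recruit phosphatases.

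Single-cell RNA was counted in 3 droplet libraries, 1 for each condition. Bone marrow of C57/BL6 mice was grown with GM-CSF until day 7, and the cultures were then left untreated or were given 1 µM of 1,25-dihydroxycholecalciferol (VD3), the active form of vitamin D, for 24 hours. The graft library held cells from human split-thickness skin that had lain under the skin of C57BL6/J mice for 14 days, with the grafts of 5 mice pooled and only mouse genes counted. The comparison of the cultures asks how VD3 alters such cells, and the graft shows where the same genes are found in tissue.

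After the cell filter, the untreated library held 7257 cells with 132574308 unique molecular identifiers (UMIs, each standing for 1 captured RNA molecule). The VD3 library held 8825 cells with 116461484 UMIs, and the graft library 2144 cells with 22646544 UMIs. Median depth was 15804, 12089 and 6637.5 UMIs per cell, in that order. The untreated and VD3 libraries shared 19 cell barcodes, and the graft shared 7 with each culture. Levels are counts per 1000000 gene UMIs (CPM), summed over cells. With 1 library per condition there was no replicate and no test, and the 95% intervals, exact Poisson for levels, exact conditional binomial for ratios and Clopper-Pearson for shares, cover counting error only.

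The cultures are labelled as macrophages, and the markers showed a mixture. Each cell was assigned to a gate by its score for listed marker genes, among which were none of the 9 receptor genes. The dendritic gate, set by genes such as Ccr7, Fscn1 and Ccl22, took 41.1% (95% interval 39.9 to 42.2%) of the untreated cells and 43.4% (42.3 to 44.4%) of the VD3 cells. Flt3, another of its listed markers, stood at only 4.45 and 1.76 CPM in this gate. The monocyte-macrophage gate, set by genes such as Csf1r, Adgre1, C1qa and Ccr2, took 28.1% (27.1 to 29.2%) and 19.3% (18.5 to 20.2%). Smaller gates held neutrophils (243 and 373 cells), neutrophil precursors (61 and 89) and type 1 conventional dendritic cells, called cDC1 (66 and 55). The dendritic gate was thus the larger of the 2 main gates in each culture labelled as macrophages. Cells without a gate made up 24.9% and 30.7% and were shallow, with medians of 7058.5 and 3169.5 UMIs. Their median sum over the macrophage markers was 11.4 and 10.8 per 10000 UMIs, so the gate shares are no count of the macrophages.

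The gates are ranges of a score and not cell types. The scoring rule was settled after the counts, the receptor levels by cluster included, had been seen, and several rules were tried and compared with clusters. Within 0.02 of the cut lay 214 and 189 cells of the monocyte-macrophage gate, 31 and 40 of the dendritic gate and 28 and 58 of the neutrophil gate. Per cell in the untreated monocyte-macrophage gate, the median sum over the dendritic cell markers was 0.7995 per 10000 UMIs and that over the neutrophil markers 1.63, beside 31.7 for the macrophage markers. In the VD3 gate these medians were 0, 1.37 and 45.7. In the dendritic gate, the median over the mature dendritic cell markers was 75.7 and 59.1, and that over the macrophage markers 1.74 and 1.37. Doublets were kept.

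Both genes of the vitamin D response fitted the culture labels. Vdr, which encodes the vitamin D receptor, stood at 51.1 CPM (49.9 to 52.4) in the untreated culture, 134.7 (132.6 to 136.9) with VD3 and 52.1 (49.1 to 55.1) in the graft. Cyp24a1, which encodes the enzyme that inactivates the hormone, had 1 UMI in the untreated culture, 36662 with VD3 and 0 in the graft. With VD3, Cyp24a1 reached 608.8 CPM in the monocyte-macrophage gate, 855.8 in the neutrophil precursor gate, 142.1 in the neutrophil gate and 90.6 in the dendritic gate. The gates in which the receptor genes were compared thus each held Cyp24a1 UMIs in the VD3 culture.

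Across the whole cultures, the receptor genes were mostly lower with VD3. A gene was called where its ratio passed 2-fold and its level reached 10 CPM in the higher library. Of the 9 genes, 7 reached that level, all of them in both cultures, and Cd209a and Clec9a did not. Of these 7, 4 were called, namely Mrc1, Clec4n, Clec4d and Clec4a2, where 6.79% of the 7732 genes tested were called in either direction. All 4 calls were lower, beside 4.63% of genes in that direction, and 0 were higher, beside 2.16%. The median log2 ratio of the 7 was -1.39, and that of all genes tested was -0.10. Clec12a and Ly75 had ratios above 1, both under 2-fold.

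**Figure D1:**
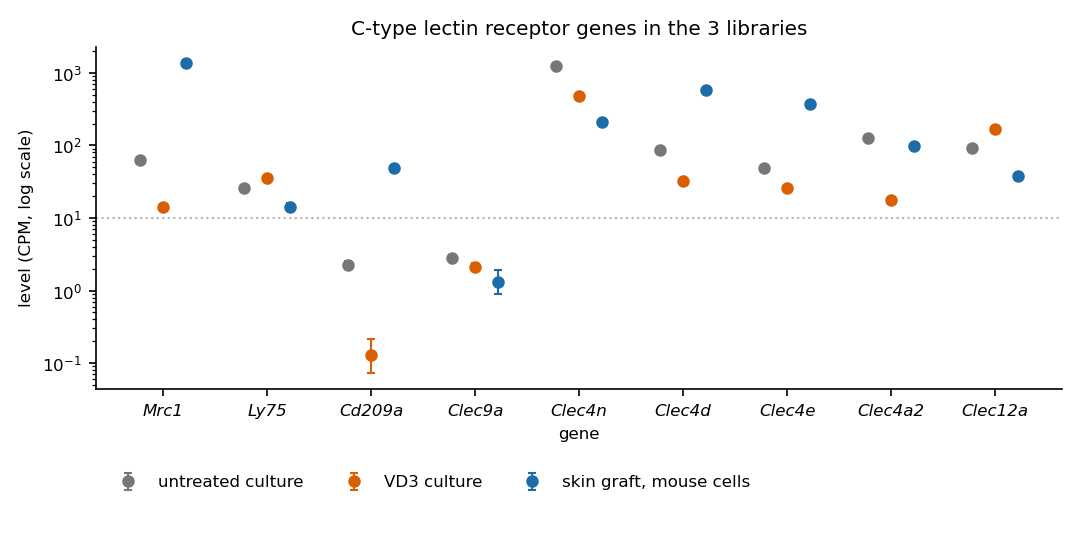
Level of each measured receptor gene (CPM, log axis) in the untreated culture, the VD3 culture and the mouse cells of the skin graft; bars are exact 95% Poisson intervals and the dotted line marks 10 CPM. Mrc1 went from 62.7 CPM untreated to 14.1 with VD3 and stood at 1373 in the graft, whereas Clec12a was higher with VD3, at 169.7 CPM, than in either other library.

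Among the endocytic receptors, Mrc1 fell and Ly75 did not. Mrc1 encodes the mannose receptor, which clears glycoproteins and microbes that carry mannose. Its level was 62.7 CPM (61.4 to 64.1) untreated and 14.1 (13.4 to 14.8) with VD3. That is 4.46-fold lower, a log2 ratio of -2.16 (-2.23 to -2.08). With cells under 5% mitochondrial UMIs alone, which kept 3125 and 3619 cells, it was -3.86. The fall was seen inside both large gates. In the monocyte-macrophage gate Mrc1 stood at 113.3 CPM (110.4 to 116.3) and 42.6 (40.3 to 45.1), a log2 ratio of -1.41 (-1.50 to -1.32), or -2.26 under the 5% limit. The dendritic gate had 13.04 and 2.72 CPM, a log2 ratio of -2.26 (-2.52 to -2.01), which was -1.29 with clusters in place of gates, where the untreated level was 1.13 CPM, and -4.02 under the 5% limit. The neutrophil gates held 0 Mrc1 UMIs in both cultures, which allows up to 3 counts each.

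Ly75 encodes DEC-205, an uptake receptor that delivers antigen for presentation. Its level was 25.9 CPM (25.0 to 26.8) untreated and 35.5 (34.5 to 36.6) with VD3, 1.37-fold higher, and 14.4 CPM in the graft. The dendritic gate held 80.9% of its UMIs in the untreated culture and 91.1% in the VD3 culture. Within that gate the levels were 54.6 (52.6 to 56.7) and 62.4 (60.4 to 64.4) CPM, a log2 ratio of 0.19 (0.12 to 0.26). Ly75 was thus the receptor gene most confined to the dendritic gate in both cultures, and its levels there differed by 1.14-fold.

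Cd209a and Clec9a were scarce in the whole cultures. Cd209a, a mouse relative of the gene for the adhesion and pathogen receptor DC-SIGN, had 301 UMIs in the untreated culture, or 2.27 CPM (2.02 to 2.54), and 15 with VD3, or 0.129 (0.0721 to 0.212). The log2 ratio was -4.14 (-5.00 to -3.39), and -3.22 under the 5% mitochondrial limit, at levels below the minimum for a call. Its counts in the monocyte-macrophage gate were 84 and 1, and in the cells without a gate 125 and 5. Its highest level in the cultures was in the cDC1 gate, at 66 and 4 UMIs, or 57.95 and 6.96 CPM, where it was called lower, with a log2 ratio of -3.06 that was -4.27 with clusters in place of gates and -2.08 under the 5% limit. Clec9a encodes DNGR-1, by which cDC1 recognise actin exposed on dead cells. It had 368 and 247 UMIs in the cultures and 30 in the graft. Its level in the cDC1 gate was 121.2 CPM (101.8 to 143.2) untreated, 116.6 (90.3 to 148.0) with VD3 and 115.6 (69.6 to 180.5) in the 9 such cells of the graft, and it was at most 3.81 CPM in the monocyte-macrophage, dendritic, neutrophil and ungated cells of either culture. The 3 and 6 endothelial cells of the cultures held 5 and 4 Clec9a UMIs, or 265.5 CPM (86.2 to 619.7) and 67.6 (18.4 to 173.0). The 3 cDC1 levels overlapped in their intervals, though with clusters in place of gates the VD3 level was 50.6 CPM and the log2 ratio moved from -0.06 to -1.15.

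The activating receptors were lower with VD3 in the culture as a whole, 2 of the 3 past 2-fold. Clec4n encodes dectin-2, a receptor for fungal mannans. Its level was 1263 CPM (1257 to 1269) untreated, 473.6 (469.7 to 477.6) with VD3 and 208.6 (202.7 to 214.7) in the graft, and the log2 ratio of the cultures was -1.41 (-1.43 to -1.40). The monocyte-macrophage gate held 68.3% and 55.6% of its culture UMIs. There its level was 2240 CPM (2227 to 2253) and 1062 (1050 to 1074), a log2 ratio of -1.08 (-1.09 to -1.06), which came under 2-fold with a median-of-ratios scaling (-0.96) and under the 5% mitochondrial limit (-0.69). The dendritic gate had 298.5 (293.8 to 303.3) and 151.6 (148.5 to 154.7) CPM, a log2 ratio of -0.98, which was -1.31 under the 5% limit and -0.48 with the cells of highest Scrublet score removed, and with clusters in place of gates the levels were 135.8 and 94.9 CPM. The ratio of Clec4n was thus below 1 in both large gates under each alternative named here, and its size depended on the cells kept.

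Clec4d and Clec4e encode MCL and Mincle, a pair of receptors for mycobacterial glycolipids that can be found in 1 complex. Clec4d stood at 85.8 CPM (84.2 to 87.3) untreated and 32.8 (31.8 to 33.9) with VD3, a log2 ratio of -1.39 (-1.44 to -1.33), which was -0.89 as a mean over cells and -0.83 under the 5% mitochondrial limit. Clec4e stood at 49.0 CPM (47.8 to 50.2) and 25.7 (24.8 to 26.6), a log2 ratio of -0.93 (-0.99 to -0.87), short of 2-fold. The partners were thus 2.61-fold and 1.91-fold lower in the VD3 culture, on either side of the threshold. In the monocyte-macrophage gate, Clec4d was 154.8 (151.4 to 158.2) and 71.4 (68.3 to 74.5) CPM, a log2 ratio of -1.12 that came to -0.88 with clusters in place of gates and -0.62 under the 5% limit. Clec4e was 86.9 (84.3 to 89.5) and 56.2 (53.5 to 59.0) CPM there, a log2 ratio of -0.63. The ratio of Clec4d in the dendritic gate depended on which cells were kept. Its levels there were 16.1 and 6.24 CPM, a log2 ratio of -1.37. With the cells of highest Scrublet score removed, 295 of the 2981 and 503 of the 3826, the ratio was -0.46, with clusters in place of gates, at 3.29 CPM untreated, -0.96, and under the 5% limit -2.30.

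The inhibitory receptors went opposite ways. Clec4a2 encodes DCIR, which restrains activation of dendritic and myeloid cells. Its level was 126.3 CPM (124.4 to 128.2) untreated, 17.5 (16.8 to 18.3) with VD3 and 98.3 (94.3 to 102.5) in the graft. The log2 ratio of the cultures was -2.85 (-2.92 to -2.78), 7.203-fold lower, which came to -2.08 as a mean over cells and -1.78 under the 5% mitochondrial limit. It stayed past 2-fold under each whole-culture alternative. Its fold was the largest among the 7 genes tested in the whole cultures, except under the 5% limit and as a mean over cells, where that of Mrc1 was larger, at -3.86 and -2.35. In the monocyte-macrophage gate it went from 219.1 CPM (215.1 to 223.2) to 26.02 (24.2 to 27.95), a log2 ratio of -3.07 (-3.18 to -2.97), or -1.77 under the 5% limit. The dendritic gate went from 25.7 to 6.66 CPM, a log2 ratio of -1.95, which no longer passed 2-fold with the cells of highest Scrublet score removed (-0.80) or with clusters in place of gates (-0.50), where the untreated level was 6.74 CPM.

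Clec12a encodes MICL, an inhibitory receptor for uric acid crystals and dead cells. It stood at 91.4 CPM (89.78 to 93.04) untreated and 169.7 (167.4 to 172.1) with VD3, a log2 ratio of 0.89 (0.86 to 0.93), which passed 2-fold, at 1.05, when the make-up of gates was held fixed. In the monocyte-macrophage gate Clec12a rose from 109.2 CPM (106.3 to 112.1) to 227.6 (222.1 to 233.2), a log2 ratio of 1.06 (1.01 to 1.11). That ratio was 0.86 both as a mean over cells and under the 5% mitochondrial limit. In the dendritic gate it rose from 18.2 (17.0 to 19.4) to 57.1 (55.2 to 59.1) CPM, a log2 ratio of 1.65 (1.55 to 1.76), and 2.28 with the cells of highest Scrublet score removed; with clusters in place of gates the levels were 7.10 and 32.7 CPM. Within both large gates, Clec12a was the only one of the 9 genes called higher.

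Counted by gate, the monocyte-macrophage gate gave 5 calls among 6 tested genes, where 8.46% of all genes tested in that gate were called. Mrc1, Clec4n, Clec4d and Clec4a2 were lower and Clec12a was higher. Under the 5% mitochondrial limit Clec4n, Clec4d and Clec12a came under 2-fold there. In the dendritic gate 4 of 6 were called, beside 5.19% of all genes there, with Mrc1, Clec4d and Clec4a2 lower and Clec12a higher. With clusters in place of gates, Mrc1, Clec4d and Clec4a2 fell under the 10 CPM minimum there. Without the cells of highest Scrublet score, Clec4d and Clec4a2 came under 2-fold. In the neutrophil gate 0 of 6 tested receptor genes were called, beside 8.06% of all genes.

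In that neutrophil gate Clec12a stood at 515.3 CPM (468.7 to 565.3) untreated and 540.3 (502.4 to 580.3) with VD3. Clec4a2 stood at 82.8 (64.8 to 104.3) and 80.4 (66.2 to 96.7) CPM, a log2 ratio of -0.04 (-0.48 to 0.40). Clec4d stood at 124.2 and 112.6 (95.7 to 131.7) CPM. The intervals of these pairs overlapped, and a difference between the neutrophil gate and the other gates was not tested. Clec4n was 552.1 (503.8 to 603.8) and 468.5 (433.3 to 505.9) CPM in this gate, and with clusters in place of gates 1969 and 1201 CPM. Clusters also put the untreated level at 318.0 CPM for Clec12a and 220.6 for Clec4d. Under the 5% mitochondrial limit the log2 ratio in this gate was 0.01 for Clec4d and 0.19 for Clec4a2.

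The smallest gates gave the least settled values. In the neutrophil precursor gate 1 of 5 tested genes was called, Clec4d at 33 and 12 UMIs, beside 12.4% of all genes; its log2 ratio of -1.49 was -2.36 under the 5% limit. Clec12a stood there at 484.3 (450.7 to 519.8) and 556.0 (520.4 to 593.4) CPM. Of the VD3 cells in that gate, 76.4% came from a cluster left unnamed, whereas 96.7% of the untreated cells came from the precursor cluster. In the cDC1 gate 7 of 9 genes were called, all lower, beside 22.4% of all genes. Clec4n went there from 542 UMIs to 27 and Clec4a2 from 72 to 0, at least 12.1-fold lower. With clusters in place of gates the log2 ratio of Clec4n in cDC1 turned from -3.34 to 0.84 and that of Clec4d from -2.38 to 0.12. The direction for these genes in cDC1 thus depended on how cells were assigned. For Clec4a2 the log2 ratio with the 0 set to 3 counts, -3.60, was -2.51 with a stricter gate and -2.61 under the 5% limit. With clusters its untreated level was 15.1 CPM in place of 63.2. Mrc1, at 12 and 0 UMIs, lost its call with the size factor (-0.96), a stricter gate (-0.02) and the 5% limit (-0.18), and Clec4e, at 18 and 0 UMIs, with a stricter gate (-0.48) and the 5% limit (-0.85). With clusters the untreated level of each was 0.837 CPM, under the minimum for a call.

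**Figure D2:**
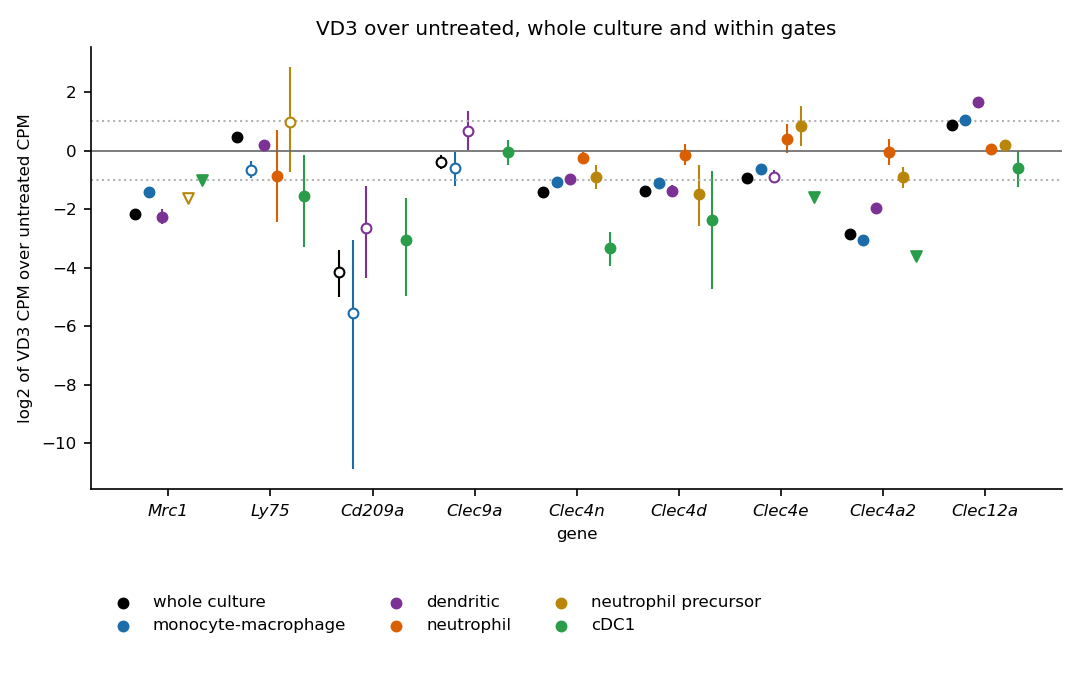
Log2 ratio of VD3 over untreated CPM for each receptor gene in the whole culture and within each gate; bars are exact 95% conditional binomial intervals, triangles are bounds where 1 culture had 0 UMIs, open symbols are under 10 CPM in both cultures, and dotted lines mark 2-fold. In the monocyte-macrophage gate the ratio was -3.07 for Clec4a2 and 1.06 for Clec12a, and in the neutrophil gate no filled point passed 2-fold.

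The clusters behind each gate differed between cultures. In the untreated culture the monocyte-macrophage gate drew 44.8% of its cells from a cluster of that name, 42.2% from an unnamed cluster and 9.36% from a neutrophil cluster. In the VD3 culture it drew 46.6% from the cluster of that name, 28.3% and 9.21% from unnamed clusters and 8.27% from a neutrophil cluster. The dendritic gate came mostly from dendritic clusters, 48.7%, 28.0% and 13.6% in the untreated culture, beside 8.35% from a basophil or mast cell cluster, and 74.5% and 14.5% in the VD3 culture. The neutrophil gate drew 87.2% and 80.2% from the neutrophil clusters. The cDC1 gate drew 77.3% and 78.2% from the cDC1 clusters.

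Some markers of these gates moved with the receptor genes. All 7 monocyte markers were detected in both cultures, and their summed level was 684.5 CPM (680.0 to 688.9) untreated and 184.4 (182.0 to 186.9) with VD3. The most abundant of them was Ccr2, at 317.7 CPM, in the untreated culture and Hp, at 76.0 CPM, in the VD3 culture. Ccr2 was at 0.687 CPM with VD3, and inside the monocyte-macrophage gate, which it helps to set, at 559.2 and 1.35 CPM. The 10 macrophage markers, all detected and led by Ctsd, summed to 1883 and 1946 CPM. The 8 dendritic cell markers, led by Ccr7, summed to 692.3 and 883.1 CPM, and Ccr7 alone went from 423.7 to 713.1. Zbtb46 and Bcl11a were also higher with VD3. Lower were Cbfa2t3, at 138.0 and 70.3 CPM, H2-DMb2, at 46.03 and 24.15, Tbc1d4, Dpp4 and Flt3. For the 10 neutrophil markers, led by S100a8, the sums were 5149 and 6009 CPM. The part of these shifts in the levels of Mrc1, Clec4a2 and the other receptor genes was not tested. With the make-up of gates held at that of the untreated culture, the log2 ratios were -2.68 for Clec4a2, -1.68 for Mrc1, -1.08 for Clec4n and -1.06 for Clec4d.

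Shares of cells with a UMI were read after each cell was thinned to 2000 UMIs, since depth differed between the cultures. In the monocyte-macrophage gate this left out 26 untreated and 118 VD3 cells, with median depths of 21681 and 15759 UMIs. Clec4n was found in 89.0% (87.6 to 90.4%) and 78.0% (75.9 to 80.0%) of the remaining cells, and in 96.9% and 92.9% unthinned. Clec4a2 was found in 34.01% (31.9 to 36.1%) and 5.10% (4.07 to 6.30%), and in 85.4% and 27.0% unthinned. At a fixed depth such a share largely follows the level, so the lower Clec4a2 share is no separate result. Clec12a was found in 18.8% (17.1 to 20.5%) and 29.6% (27.3 to 31.9%), though unthinned in 73.6% and 70.6%. Mrc1 was found in 18.6% (16.9 to 20.3%) and 6.87% (5.67 to 8.23%), and in 64.6% and 27.5% unthinned. As a reference for free RNA, the B lineage gate, with median depths of 8563.5 and 6011 UMIs, kept 19 and 13 cells after thinning and left out 1 and 3. Of these, 2 untreated cells and 0 VD3 cells held a Clec4n UMI. None held a UMI of Mrc1, Clec4a2 or Clec12a in either culture, with upper limits of 17.65% and 24.7%, and unthinned 2 of the 20 untreated B lineage cells held Mrc1 and 2 held Clec4a2. Unthinned, the 163 Clec4n UMIs of this untreated gate, or 714.7 CPM, lay in 2 of the 20 cells. With many UMIs in so few cells, the gate is a poor reference for free RNA of Clec4n.

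In the graft, the receptor genes were read by gate as in the cultures, but with each marker scaled within the graft. The monocyte-macrophage gate held 858 cells, the neutrophil gate 487, the T cell gate 254, the fibroblast gate 140 and the dendritic gate 72, with 266 cells left without a gate. By further marker lists, 152 of the 858 were set apart as resident-type (Lyve1, Folr2, Cd163), 336 as Trem2-type (Trem2, Spp1, Gpnmb), 97 as monocyte-type (Ly6c2, Ccr2, Plac8) and 273 as other macrophages. The same scoring rule applied, and 10, 21, 8 and 41 of these cells lay near the cut. The macrophage gate came from 3 clusters of that name, at 31.1%, 34.8% and 33.4%, and the neutrophil gate to 93.4% from the neutrophil cluster.

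Mrc1 was highest in the resident-type cells. Its levels in descending order were resident-type, 5051 CPM (4959 to 5145), other macrophages, 2916 (2852 to 2980), Trem2-type, 1540 (1509 to 1572), and monocyte-type, 560.7 (518.3 to 605.7). None of the neighbours in this order overlapped in their counting intervals, although clusters in place of gates put the monocyte-type value at 1167 CPM. Cells without a gate stood at 657.7 CPM (619.3 to 697.8), above the monocyte-type cells. Outside the macrophages Mrc1 was 176.9 CPM (150.5 to 206.6) in the dendritic gate, 39.4 (29.8 to 51.2) in neutrophils, 37.2 (31.2 to 44.1) in fibroblasts and 23.1 (16.4 to 31.6) in T cells. Alternatives moved the fibroblast value to 102.9 as a mean over cells and 19.7 under the 5% mitochondrial limit, and the T cell value to 78.8 with clusters. The endothelial gate stood at 245.1 CPM in 27 cells, and at 15.6 with the cells of highest Scrublet score removed. After thinning, Mrc1 was found in 99.3% (96.0 to 99.98%) of 138 resident-type cells with 14 left out, and in 3.17% (1.38 to 6.16%) of 252 T cells with 2 left out; the unthinned shares were 98.03% and 12.99%, and the median depths 12637 and 5718.5 UMIs.

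Clec4d and Clec4e were highest in neutrophils of the graft. Clec4d stood there at 4599 CPM (4488 to 4712), beside 608.5 (564.3 to 655.2) in monocyte-type, 598.1 (578.8 to 617.9) in Trem2-type and 147.0 (131.7 to 163.7) in resident-type cells. The monocyte-type and Trem2-type levels overlapped in their intervals. Clec4e stood at 2882 CPM (2795 to 2972) in neutrophils, 773.4 (723.4 to 825.9) in monocyte-type, 223.8 (212.1 to 236.1) in Trem2-type and 88.0 (76.3 to 101.1) in resident-type cells, with 456.4 in monocyte-type cells when clusters replaced gates. Other macrophages had 367.4 CPM of Clec4d and 264.5 of Clec4e, and cells without a gate 426.0 and 492.0. The 13 cells of the basophil or mast cell gate had 643.7 CPM (483.6 to 839.9) of Clec4d and 1943 (1656 to 2265) of Clec4e. In the T cell gate they were 36.1 and 21.3 CPM, or 8.74 and 13.1 with the cells of highest Scrublet score removed, and 71.6 for Clec4d with clusters in place of gates. Neutrophils were 22.7% of the graft cells and held 49.6% of the Clec4d and 48.9% of the Clec4e UMIs. After thinning, Clec4d was found in 98.3% (96.2 to 99.4%) and Clec4e in 87.5% (83.6 to 90.8%) of 345 neutrophils, with 142 left out and a median depth of 2347 UMIs. In the thinned T cells the shares were 3.17% and 3.97%. Unthinned, they were 98.6% and 88.9% in neutrophils and 7.87% and 8.66% in T cells. The neutrophil gates of the cultures, at 124.2 and 112.6 CPM for Clec4d and 61.0 and 80.4 for Clec4e, stood below that of the graft.

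The monocyte-macrophage gate held 72.0% of the graft UMIs of Clec4n, 86.2% of those of Clec4a2 and 78.4% of those of Clec12a. By level, Clec4n stood at 442.0 CPM (408.1 to 478.0) in graft neutrophils, 344.8 (330.2 to 359.9) in Trem2-type, 188.4 (164.1 to 215.2) in monocyte-type and 158.9 (142.9 to 176.2) in resident-type cells. Cells without a gate, at 299.4 CPM (273.7 to 326.9), and other macrophages, at 266.3 (247.3 to 286.4), lay between the Trem2-type and monocyte-type cells. The monocyte-type value was 306.5 with clusters in place of gates. Clec4a2 stood at 223.1 CPM (196.6 to 252.1) in monocyte-type, 156.0 (146.2 to 166.3) in Trem2-type and 146.1 (130.8 to 162.7) in resident-type cells, of which the last pair overlapped. It was 63.4 CPM (50.9 to 77.9) in neutrophils, or 38.9 with clusters, and 1.78 (0.366 to 5.19) in T cells. Clec12a had its highest level in the 9 cDC1, 176.5 CPM (118.2 to 253.4) on 29 UMIs. It stood at 74.6 CPM (67.9 to 81.8) in Trem2-type, 71.2 (56.6 to 88.4) in monocyte-type, 44.3 (34.1 to 56.7) in neutrophils and 12.3 (8.19 to 17.8) in resident-type cells, where the Trem2-type and monocyte-type intervals overlapped. With clusters the monocyte-type value was 44.0 and the resident-type value 21.8, which as a mean over cells was 6.05. The neutrophil gate of the graft thus held less Clec12a than those of the cultures, at 515.3 and 540.3 CPM, and more Clec4d and Clec4e. Libraries from a tissue and from cultures differ in much else. The gates of this name also differed in the markers that set them, each of which was higher in the graft. S100a8 stood at 57067 and 46603 CPM in the culture gates and 60584 in the graft gate. For Retnlg the levels were 8.05, 32.3 and 6015 CPM, and for Csf3r 242.7, 161.4 and 1490.

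**Figure D3:**
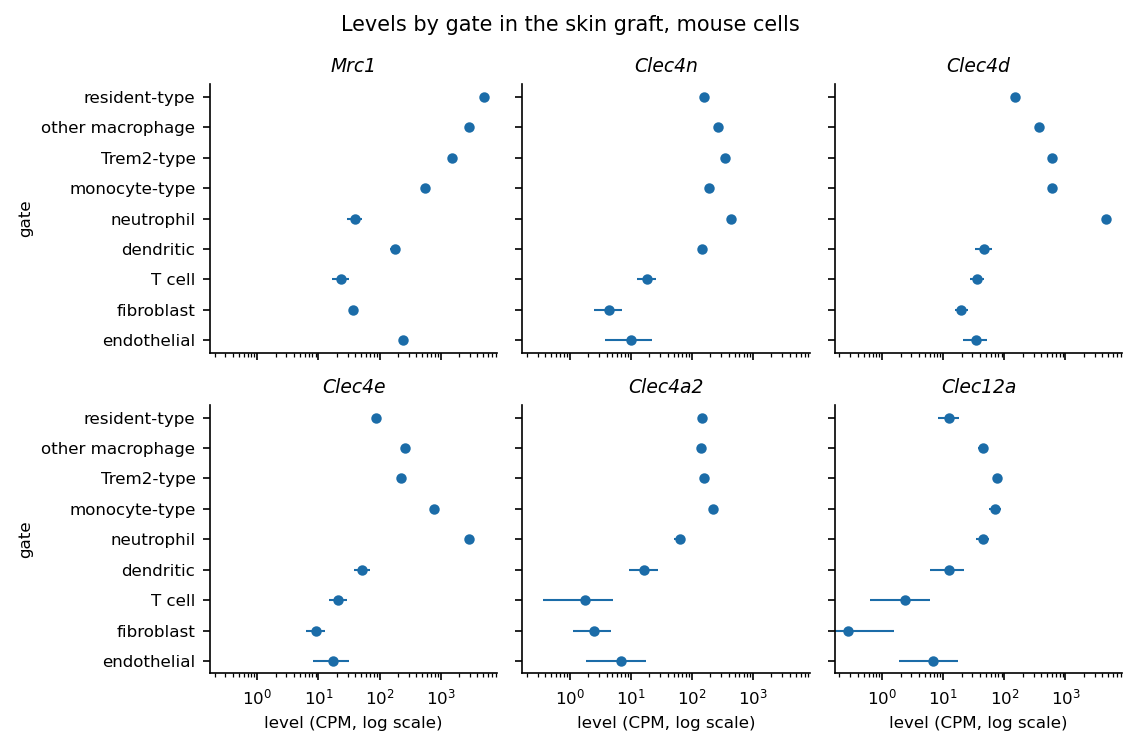
Level of 6 receptor genes (CPM, log axis) in 9 gates of the skin graft, mouse cells only; bars are exact 95% Poisson intervals. Mrc1 was highest in resident-type macrophages, at 5051 CPM, and Clec4d and Clec4e in neutrophils, at 4599 and 2882 CPM.

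Ly75 and Cd209a were highest in the dendritic gate of the graft, each with another group of cells in an overlapping interval. Ly75 stood at 181.3 CPM (154.6 to 211.4) there and at 133.9 (83.9 to 202.7), an overlapping interval, in the 9 cDC1, beside 29.0 (21.5 to 38.4) in T cells and 2.70 (1.86 to 3.79) in the monocyte-macrophage gate. Cd209a stood at 293.7 CPM (259.3 to 331.3) in the dendritic gate, 271.2 (246.8 to 297.4) in cells without a gate, which held 452 of its UMIs beside 264, and 121.9 (108.0 to 137.2) in resident-type macrophages, or 73.8 there with clusters in place of gates and 70.4 under the 5% mitochondrial limit. Monocyte-type cells stood at 16.5 CPM (9.93 to 25.8), and with clusters at 108.2, above the resident-type cells. Its UMIs came from few cells. Unthinned, 21 of 72 dendritic cells, 22 of 266 cells without a gate and 17 of 152 resident-type cells held at least 1. Trem2-type macrophages held 6 Cd209a UMIs in 336 cells, and neutrophils 0 in 487, which allows up to 3 counts.

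Genes that act below the activating and inhibitory receptors were counted in the whole cultures, where 2.16% of all genes tested were called higher and 4.63% lower, with a median log2 ratio of -0.10. Of 16 signalling genes, all tested, 0 were higher and 2 lower with VD3, with a median log2 ratio of -0.21. Malt1, which joins Card9 and Bcl10 in a signalling complex, went from 114.3 to 50.5 CPM, and Prkcd, the kinase that acts on Card9, from 411.5 to 175.3 CPM. Syk stood at 102.1 and 108.5 CPM, Card9 at 14.8 and 14.6, and Fcer1g at 1239 and 830.4, none past 2-fold; these were singled out after their values were seen. Of 16 genes that these receptors can induce, 9 were tested, with 0 higher, 2 lower and a median log2 ratio of 0.27. The lower pair was Cxcl2, a chemokine that recruits neutrophils, at 86.7 and 34.1 CPM, and Nlrp3, an inflammasome sensor, at 42.4 and 21.1 CPM, whose log2 ratio of -1.01 lies closer to 2-fold than the shift of 0.08 that a median-of-ratios scaling gives. Both are products of stimulated myeloid cells, and in the graft they stood at 5122 and 339.1 CPM. Within gates the same list gave other counts. Of 8 tested in the monocyte-macrophage gate, where 8.46% of all genes were called, 2 were higher, Ccl3 and Egr3, and 1, Cxcl2, was lower, with a median log2 ratio of 0.46. In the neutrophil precursor gate, beside 12.4%, 4 of 6 were higher, Ccl2, Ccl3, Egr3 and Tnf, and 0 lower, with a median of 2.63. The dendritic gate had 0 higher and 2 lower of 5, Ccl2 and Cxcl2, with a median of -0.60, beside 5.19% of all genes. Of 7 in the cDC1 gate, beside 22.4%, 2 were higher, Il1b on 4 and 6 UMIs and Tnf, and 3 lower, Ccl3, Cxcl2 and Egr2, with a median of -0.53. The neutrophil gate had 0 called of 8, beside 8.06%.

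The signalling list was read by gate with the same shares of all genes as reference. Malt1 and Prkcd were lower in the monocyte-macrophage gate, Malt1 and Src in the dendritic gate and Src in the neutrophil gate, each of 16 tested and with 0 higher. The shares of all genes called in these gates were 8.46%, 5.19% and 8.06%. In the precursor gate 2 of 15 were higher, Lyn and Ptpn6, beside 12.4% of all genes called. Of these, Ptpn6 encodes a phosphatase that inhibitory receptors such as Clec4a2 recruit. Of 14 in the cDC1 gate, beside 22.4% of all genes called, 4 were lower: Malt1, Prkcd, Vav1 and Fcer1g, the gene of the adaptor that Clec4n, Clec4d and Clec4e share. In the neutrophil, precursor and cDC1 gates the list thus lay near the share of all genes. Alternatives were not run for the genes of any list, in the whole cultures or within gates.

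Other C-type lectin genes of the same families were counted in the same way. Of 27 listed, 7 were tested, with 1 higher, beside 2.16% of all genes, 3 lower, beside 4.63%, and a median log2 ratio of -0.25. Cd69, a lymphocyte and myeloid activation marker, went from 28.4 to 81.3 CPM. The lower genes were Clec4a3, at 35.3 and 9.31 CPM, Clec4b1, at 31.3 and 4.33, and Clec5a, which pairs with the adaptor Tyrobp, at 80.8 and 38.2, a log2 ratio of -1.08 that the same shift of 0.08 brings to the threshold. In the whole cultures the relatives of Clec4a2 named here, Clec4a3 and Clec4b1, were thus lower as it was. By gate, Cd69 was higher and Clec4a1, Clec4a3 and Clec4b1 lower among 8 tested in the monocyte-macrophage gate, beside 8.46% of all genes called. Clec5a was lower among 4 in the dendritic gate, beside 5.19%. Cd69 and Clec4a3, the latter at 12 and 39 UMIs, were higher among 6 in the neutrophil gate, beside 8.06%, and Cd69 among 4 in the precursor gate, beside 12.4%. Of 9 in the cDC1 gate, beside 22.4%, Cd69 and Clec2i were higher and Cd207, Clec4a3, Clec4b1, Clec5a and Klrb1b lower. The direction of Clec4a3 thus differed between gates, a difference that was not tested.

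Several of these genes are neighbours on chromosome 6. In GENCODE vM21, build GRCm38, whose gene identifiers matched those of all 36 receptor and other lectin genes looked up, Clec4a2, Clec4n, Clec4d and Clec4e lie in a row of 9 listed lectin genes, from Clec4a1 to Clec4e, that spans chr6:122921848-123289870, or 368 kb. Clec4b2 lies between Clec4a2 and Clec4n. The deposited files give no coordinates, and the submitters' notes name build mm9, so positions are those of the annotation. Of the 9 genes in the row, 6 reached 10 CPM. All 6 had ratios below 1 with VD3, as had 4720 of the 7732 genes tested. Of the 6, 5 passed 2-fold, beside 4.63% of all genes called lower: Clec4a3, Clec4b1, Clec4a2, Clec4n and Clec4d. Clec12a and Clec9a lie further along chromosome 6, in a stretch of 693 kb with 10 of the lectin genes counted here. Of the 5 tested there, 0 were called lower, beside the same 4.63%, and 1, Cd69, was called higher, beside 2.16%. A difference between these stretches was not tested. Reads that fit more than 1 of the alike Clec4a and Clec4b genes, or of the Cd209 genes, cannot be told apart, and Clec9a overlaps the neighbouring Clec1b, so their levels are uncertain to that extent.

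**Figure D4:**
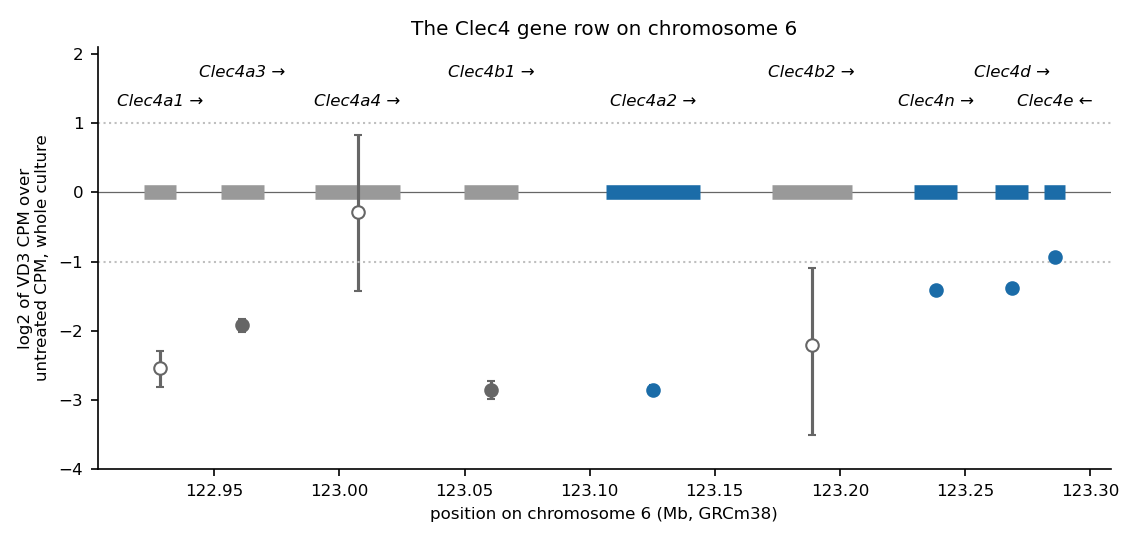
Map of the row of 9 lectin genes on chromosome 6 (GRCm38, Mb), with the log2 ratio of VD3 over untreated CPM in the whole culture at each gene; receptor genes of the set are blue, other listed lectin genes grey, bars are exact 95% intervals, open points are under 10 CPM and dotted lines mark 2-fold. The ratio was -2.85 for Clec4a2, -1.41 for Clec4n, -1.39 for Clec4d and -0.93 for Clec4e.

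Promoter sequences are shown because several of these genes moved together. RefSeq sequences of 250 bases before to 50 after the start of transcription, build GRCm38.p6, were found for 8 of the 9 measured genes, without Clec4n. The letters AGAGGAA, the core bound by the myeloid factor PU.1, were in 4 of the 8 on either strand, beside 10.4% of the 32851 promoters. These were Mrc1, Clec4d and Clec4e, whose whole-culture ratios were below 1, and Clec12a, whose ratio was above 1. The windows of Clec12a and Clec4a2 lie inside the spans that GENCODE gives these genes and not at their edge. Clec4a2 lacked AGAGGAA in its window and held TGACTCA, the letters of an AP-1 site, which were in 5.20% of promoters. Of the letters of a vitamin D receptor half-site, AGGTCA was in 0 of the 8 and in 16.3% of all promoters, GGTTCA in 1, Cd209a, and 10.4%, and AGTTCA in 1, Clec4e, and 14.0%. TTGCNNAA, the letters of a C/EBP site, were in Ly75, Clec4e and Clec12a and in 10.8% of promoters. The motif AGAGGAA contains the shorter GAGGAA, which was in the same 4 genes and in 28.3% of promoters. A longer PU.1 motif of 8 letters, GAGGAAGT, was in 0 of the 8 and in 3.20% of promoters. Among 23 promoters of the other lectin genes, AGAGGAA was in 5, GAGGAA in 10 and GAGGAAGT in 0. The other letters searched were TTNCNNAA, which contains TTGCNNAA and was in 7 of the 8 and 40.7% of promoters, CAGGAAGT, in Mrc1 and 3.33%, and the 10 letters of an NF-kB site, in 0 and 0.155%. All 11 motifs were read on both strands, and AGAGGAA was picked for display after the matches had been seen. A match describes letters and was not tested as a site. In the sequences of Mrc1, Clec4d and Clec12a, capitals mark AGAGGAA or its complement, and in that of Clec4a2 TGACTCA.
Mrc1, chr2:14229164-14229463, forward strand: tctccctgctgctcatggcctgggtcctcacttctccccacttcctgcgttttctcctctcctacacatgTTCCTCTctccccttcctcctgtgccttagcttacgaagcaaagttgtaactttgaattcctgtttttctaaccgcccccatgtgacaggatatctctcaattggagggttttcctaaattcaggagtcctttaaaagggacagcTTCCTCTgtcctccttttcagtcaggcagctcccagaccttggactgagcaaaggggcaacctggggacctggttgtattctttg
Clec4d, chr6:123261857-123262156, forward strand: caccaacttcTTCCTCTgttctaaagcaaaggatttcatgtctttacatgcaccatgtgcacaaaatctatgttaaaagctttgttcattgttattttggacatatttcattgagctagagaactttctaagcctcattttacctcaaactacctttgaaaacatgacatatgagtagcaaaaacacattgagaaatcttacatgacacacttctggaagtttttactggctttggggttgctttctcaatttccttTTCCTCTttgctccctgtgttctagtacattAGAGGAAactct
Clec4a2, chr6:123122440-123122739, forward strand: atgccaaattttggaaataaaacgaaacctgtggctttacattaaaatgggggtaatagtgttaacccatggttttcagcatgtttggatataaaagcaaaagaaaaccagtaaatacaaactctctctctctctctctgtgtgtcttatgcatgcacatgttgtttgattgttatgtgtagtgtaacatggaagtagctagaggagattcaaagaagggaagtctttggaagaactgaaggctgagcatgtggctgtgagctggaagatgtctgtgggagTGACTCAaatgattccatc
Clec12a, chr6:129349994-129350293, forward strand: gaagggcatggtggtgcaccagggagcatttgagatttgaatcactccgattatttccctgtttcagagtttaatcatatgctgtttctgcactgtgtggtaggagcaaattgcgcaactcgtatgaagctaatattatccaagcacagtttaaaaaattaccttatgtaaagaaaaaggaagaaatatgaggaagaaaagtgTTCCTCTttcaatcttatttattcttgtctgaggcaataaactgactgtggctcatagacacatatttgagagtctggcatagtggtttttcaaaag

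The genes most like each receptor in pattern were taken from 18 gate-by-library sums, as Pearson's r of log2(CPM + 1) over 6140 candidate genes. The receptor genes themselves are not among the nearest genes named and were read as pairs. The sums share 3 libraries and their depths, so r is a description. Mrc1 was most like Ms4a6d (r of 0.963), Pltp (0.960) and Zfp703 (0.936). Clec4a2 was most like Tfec (0.971), the integrin gene Itgam (0.940) and the oxidase gene Cybb (0.906). For Clec4n the nearest were Prkcd (0.910), Gsap (0.843) and Ccl6 (0.840), of which Prkcd encodes the kinase that acts on Card9. Clec4d was nearest to Rnf149 (0.953), Lilr4b (0.937) and Cd300ld (0.928), and Clec4e to Lilr4b (0.928), Nfe2l2 (0.927) and Cd14 (0.917). Clec4d and Clec4e had an r of 0.94 with each other, the highest among the 36 pairs of receptor genes and above the 0.928 of Lilr4b with Clec4e. Clec12a was most like Tkt (0.935), Arl11 (0.912) and Pgd (0.905), of which Tkt and Pgd serve the pentose phosphate pathway. The order for Clec9a was Kctd14 (0.916), Snx22 (0.888) and Gcsam (0.874), for Cd209a Cd209e (0.828), Klrb1b (0.827) and Gosr2 (0.813), and for Ly75 Cnn2 (0.867), Map3k14 (0.861) and Scin (0.854). With 10 CPM added in place of 1, 14 of these 27 genes stayed among the nearest 3. Lilr4b went from 1 to 9 in the order for Clec4e, and Cnn2 from 1 to 13 in that for Ly75, where none of the genes named stayed. The sums thus placed Clec4d beside Clec4e. Clec12a had an r of -0.42 with Mrc1 and -0.51 with Cd209a, but 0.57 with Clec4n and 0.52 with Clec4a2. Its values with the other receptor genes lay between -0.22 and 0.15.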

How the data were processed

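The authors deposited raw UMI counts for 3 libraries, which came from Cell Ranger (3.1.0 by the header of each matrix) and were not normalized. The submitters' processing notes also name Seurat 3.1.1 and build mm9. The receptor genes and gene lists were chosen with earlier results of these data known. By rule, the text names all 10 receptor genes, Vdr and Cyp24a1, and each gene of a list past 2-fold with at least 10 CPM. It also names the 3 genes of highest r with each receptor gene, other receptor genes left aside. Other names were chosen after their values were seen. Barcodes with at least 300 genes, under 100000 gene UMIs and under 10% mitochondrial UMIs were kept. Scrublet, in scanpy 1.11.5, called 4, 2 and 8 cells at its automatic threshold; doublets were kept, and the 457, 691 and 45 cells of highest score were removed as an alternative. Each marker, as log counts per 10000 UMIs, was divided by its 99th percentile, and a gate needed a mean score of 0.2 and a margin of 0.1. For culture cells the percentile was the higher of those in the cultures, and for graft cells that of the graft, with a floor of 1. Graft and culture gates of the same name were thus not scaled alike. Clusters came from scanpy with 2000 variable genes, receptor and list genes left out, 15 principal components, 15 neighbors and a resolution of 0.5. Levels, ratios and intervals were computed in Python 3.11.15 with scipy 1.17.1, numpy 2.4.6 and pandas 2.3.3, and were tested on simulated data. A count of 0 was set to a floor of 3 counts. Alternatives covered the cell filter, scaling, doublets, mean over cells, make-up, gate rule, thresholds and thinning. RNA of the human graft and hashtag counts were not analysed here.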

Additional observations from a re-analysis of the deposited data

Results flagged for a closer look

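Clec4e moved in opposite directions in a pair of gates of the cultures, with counting intervals that did not reach 0. Its log2 ratio of VD3 over untreated was 0.84 (0.17 to 1.53) in the neutrophil precursor gate, on 30 and 55 UMIs, and -0.63 (-0.71 to -0.55) in the monocyte-macrophage gate. The precursor value was -0.62 with clusters in place of gates, 1.13 as a mean over cells, and 1.68 without the cells of highest Scrublet score, 3 and 1 of the gate's cells. The difference between these gates was not tested.

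Ly75 did so as well. Its log2 ratio was 0.19 (0.12 to 0.26) in the dendritic gate and -1.55 (-3.28 to -0.16) in the cDC1 gate, where it rested on 29 and 5 UMIs and was -2.22 as a mean over cells. This difference was not tested either.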

How the results depend on the processing

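In the whole cultures, all 9 log2 ratios kept their sign under each of the 8 alternatives, and the side of 2-fold was kept by all 9 under 5 of them. With cells under 5% mitochondrial UMIs (3125 and 3619 cells), the ratios were -3.86 for Mrc1, -3.22 for Cd209a, -1.29 for Clec4n, -0.83 for Clec4d, -0.71 for Clec4e, 0.51 for Clec12a, -1.78 for Clec4a2 and 0.35 for Ly75. As a mean over cells they were -2.35 for Mrc1, -1.18 for Clec4n, -0.89 for Clec4d, -0.53 for Clec4e, 0.67 for Clec12a, -2.08 for Clec4a2 and 0.10 for Ly75. With the make-up of gates held fixed they were -1.68 for Mrc1, -1.08 for Clec4n, -1.06 for Clec4d, -0.60 for Clec4e, -0.12 for Clec9a, 1.05 for Clec12a, -2.68 for Clec4a2 and 0.10 for Ly75. A median-of-ratios size factor, which shifted ratios by 0.08, gave -2.08 for Mrc1, -1.33 for Clec4n, -1.30 for Clec4d, -0.85 for Clec4e, 0.98 for Clec12a, -2.77 for Clec4a2 and 0.54 for Ly75. Without a cell filter, Mrc1 was at -2.07 and Clec4n at -1.39. A filter of 300 UMIs in place of 300 genes, removal of the cells of highest Scrublet score and removal of barcodes found in more than 1 library, the last chosen after seeing the data, moved none of the 9 beyond its interval. The cause of these shifts was not tested.

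At 1.5-fold, 5 of the 7 tested genes were lower and 1 higher (18.7% of all genes called), and with a minimum of 50 CPM 4 of 5 were lower (7.61%).

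Within gates, 6 of 30 ratios changed sign when clusters replaced gates. Of these, 2 were past 2-fold as reported: in cDC1, Clec4n turned to 0.84 and Clec4d to 0.12. The others were Clec4a2 (1.10), Clec4n (1.16) and Clec4e (-0.62) in the neutrophil precursor gate and Ly75 (0.05) in the neutrophil gate. Sign and side of 2-fold were kept by 24 and 20 of 30 ratios with clusters, 27 and 25 of 29 as a mean over cells, 31 and 29 of 32 with the size factor, 29 and 26 with a stricter gate, 31 and 28 without the cells of highest Scrublet score, and 27 and 21 under 5% mitochondrial UMIs. With clusters, 56 of 150 levels in gates moved by over 1.5-fold. Thinning to 1000 UMIs or not at all moved 84 and 114 of 180 shares.

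No paired analysis was possible because each condition had 1 library. Depth and cell number limit the small gates: the cDC1 and neutrophil precursor gates rest on fewer than 100 cells per culture, the neutrophil gates on 869421 and 1393743 gene UMIs, and in the whole cultures Cd209a rests on 301 and 15 UMIs and Clec9a on 368 and 247. Library, culture and treatment cannot be separated.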
